A study of Mus musculus with 6 samples.

Results

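Myof, Capn5, Fam189b and Gnb4 are 4 of the 20097 mouse genes with a value in these data. They were chosen by their own measured levels in these 6 libraries, each being at least 2-fold higher in those labelled Runx1 KO with little spread between replicates, so these levels are given here as a description without a test. The study compared 3 libraries labelled WT with 3 labelled Runx1 KO, all made from poly-A RNA of c-Kit+ bone marrow cells, a fraction rich in blood stem and progenitor cells that carries the receptor encoded by Kit. Neither label states an age, a sex, a strain, or how and when Runx1 was disrupted, and nothing says whether the 3 samples of a group came from separate animals, so the spread between them may be partly technical. The title of the series asks about RUNX1 and GATA2 in the making of blood cells.

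The 4 genes encode proteins of different families. Myof encodes myoferlin, a large membrane-anchored ferlin with many calcium-binding C2 domains that takes part in membrane fusion, repair and receptor recycling. Capn5 encodes calpain 5, a calcium-dependent cysteine protease that lacks the EF-hand domain of the classical calpains and does not pair with their small subunit. Fam189b, now also called Entrep3, encodes a membrane protein of the ENTREP family, whose best-known relative binds and activates the ubiquitin ligase ITCH. Gnb4 encodes a beta subunit of heterotrimeric G proteins, which stays bound to a gamma subunit and passes on signals from receptors such as CXCR4.

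The stretches just upstream of the genes are shown because the study is about transcription factors that read short DNA words. RefSeq's promoter table (GRCm38.p6) held 2 of the 4 genes. The 250 bases before the start of Myof lie at chr19:38043578-38043827 on the minus strand, and those of Fam189b at chr3:89182893-89183142 on the plus strand. Both are printed 5′ to 3′ in the direction of the gene, with every match to the RUNX word TGTGGT or its reverse complement ACCACA in capitals.
Myof: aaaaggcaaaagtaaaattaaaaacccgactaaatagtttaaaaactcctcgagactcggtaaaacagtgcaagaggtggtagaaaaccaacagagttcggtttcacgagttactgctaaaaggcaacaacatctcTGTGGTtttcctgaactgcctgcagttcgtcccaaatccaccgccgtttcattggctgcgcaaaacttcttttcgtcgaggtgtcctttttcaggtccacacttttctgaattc
Fam189b: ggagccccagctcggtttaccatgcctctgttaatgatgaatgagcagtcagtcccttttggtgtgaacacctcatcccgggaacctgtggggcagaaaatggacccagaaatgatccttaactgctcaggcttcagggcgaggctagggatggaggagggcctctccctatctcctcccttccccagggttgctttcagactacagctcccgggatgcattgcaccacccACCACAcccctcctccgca
Each stretch held 1 match, from position -114 to -109 of Myof on the strand of the gene and from -19 to -14 of Fam189b on the opposite strand, counted back from the first transcribed base. The same word, on either strand, was in 14.0% of 32851 promoter stretches of this length in the table. The GATA word GATAA or its reverse complement TTATC was in neither stretch, and in 22.6% of all. A match describes the letters only, and binding was not measured here.

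Each library held between 23297526 and 26793380 reads over the listed genes, as worked out from the deposited values, which are read counts divided by a size factor and are called normalised read counts. The targeted gene was checked first. Runx1 (chromosome 16) had 6399 ± 494 normalised reads in the group labelled Runx1 KO against 3109 ± 356 in WT (SD, n = 3), so its level goes against a loss of the transcript; the loss of a single exon would not be seen in a value per gene. Every direction below therefore runs between libraries as labelled. Kit, the receptor used for sorting, was present at 8301 ± 280 normalised reads in WT and 12649 ± 1093 in Runx1 KO (SD, n = 3). It was called higher in Runx1 KO (log2 change 0.60, SE 0.07, limma adjusted p 0.00346). Of 15410 genes tested with limma, 21.9% passed an adjusted p of 0.05, 10.6% higher and 11.3% lower in Runx1 KO.

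Myof (ENSMUSG00000048612; chromosome 19, 37899036 to 38043577, minus strand, protein coding) had the widest gap between the groups among the 4 genes. Its normalised read counts were 509, 482 and 435 in WT replicates 1 to 3 and 3386, 2827 and 2609 in Runx1 KO replicates 1 to 3. The lowest Runx1 KO library was 5.12 times the highest WT library. The means were 475 ± 37.9 and 2941 ± 401 (SD, n = 3), a ratio of 6.19 and a log2 change of 2.62 (SE 0.11). Only 43 of the 15410 tested genes, Myof included, had a ratio at least as high.

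Capn5 (ENSMUSG00000035547; chromosome 7, 98121559 to 98178274, minus strand, protein coding) was almost level across the WT libraries. Its normalised read counts were 698, 704 and 713 in WT replicates 1 to 3 and 1854, 1929 and 1763 in Runx1 KO replicates 1 to 3. The groups lay far apart, with the lowest Runx1 KO library at 2.47 times the highest WT library. The means were 705 ± 7.17 and 1849 ± 82.8 (SD, n = 3), a ratio of 2.62 and a log2 change of 1.39 (SE 0.06).

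Fam189b (ENSMUSG00000032657; chromosome 3, 89183143 to 89189295, plus strand, protein coding) had the highest WT level of the 4 genes. Its normalised read counts were 860, 835 and 898 in WT replicates 1 to 3 and 2265, 2171 and 2041 in Runx1 KO replicates 1 to 3. Every Runx1 KO library was at least 2.27 times every WT library. The means were 864 ± 31.4 and 2159 ± 112 (SD, n = 3), a ratio of 2.50 and a log2 change of 1.32 (SE 0.07).

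Gnb4 (ENSMUSG00000027669; chromosome 3, 32580332 to 32616585, minus strand, protein coding) shares its chromosome with Fam189b but is not near it. Its normalised read counts were 552, 590 and 593 in WT replicates 1 to 3 and 1447, 1373 and 1400 in Runx1 KO replicates 1 to 3. The lowest Runx1 KO library was 2.32 times the highest WT library. The means were 578 ± 22.9 and 1407 ± 37.4 (SD, n = 3), a ratio of 2.43, the lowest of the 4, and a log2 change of 1.28 (SE 0.07). The groups did not overlap in any of the 4 genes, as their choice fixed, against 43.3% of all tested genes, or 21.4% with Runx1 KO as the higher group. In whole-fraction RNA, more cells of a type that carries a transcript and more transcript per cell cannot be told apart, and this holds for every value here.

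**Figure D1:**
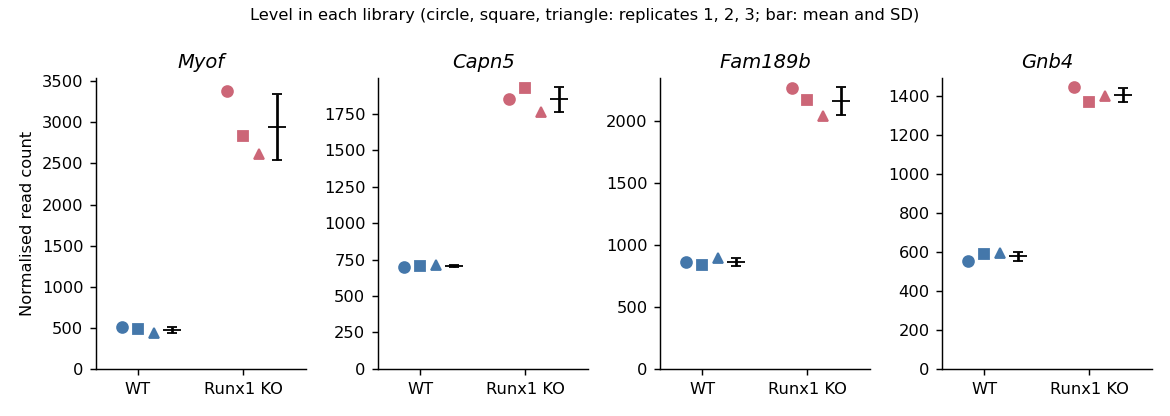
Normalised read count (vertical axis, from 0) of each gene in each library, WT in blue and Runx1 KO in red; circles, squares and triangles are replicates 1, 2 and 3, and the black bars give the mean and SD of 3 libraries. In each panel all Runx1 KO points lie above all WT points, with Myof at 2609 or more against 509 or less.

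Levels of different genes were compared per length of exon. With the exons of all transcripts in GENCODE M21 merged, the levels in WT were 237 ± 8.61 normalised reads per kb for Fam189b, 129 ± 1.31 for Capn5, 45.6 ± 1.80 for Gnb4 and 37.7 ± 3.01 for Myof (SD, n = 3). In Runx1 KO they were 592 ± 30.8, 337 ± 15.1, 111 ± 2.95 and 233 ± 31.8. The order in WT was the same as by count, whereas in Runx1 KO Myof was the highest of the 4 genes by count and came after Fam189b and Capn5 per kb. The merged exons of Myof and Gnb4 come to 12603 and 12692 bases, so levels per kb are low if mostly shorter transcripts are made.

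The spread between replicates was small for 3 of the 4 genes and ordinary for Myof. Spread is given as the SD of log2(normalised read count + 1) within groups, averaged as a variance over both. It was 0.047 for Capn5, 0.049 for Gnb4 and 0.065 for Fam189b, and 4.58%, 5.20% and 12.4% of the tested genes had a spread no larger. For Myof it was 0.16, just above the median of 0.15 over all tested genes and above the median of 0.11 over the 4545 genes with a mean between 500 and 2000 normalised reads. The word tight thus describes Myof only relative to the size of its difference. Of 1908 tested genes with a spread up to that of Fam189b, 4 had a ratio of at least 2. They were Capn5, Gnb4, Fam189b and 2900026A02Rik, which was not among the chosen genes and had 700 ± 33.5 against 1425 ± 33.1 normalised reads (SD, n = 3), a ratio of 2.04. With a spread up to that of Myof, 62 of 8074 genes had a ratio of at least 2, against 550 (3.57%) of all tested genes. Among those 8074, the genes nearest to the 2-fold limit were Dmwd and Zfp507 just above it, with ratios of 2.00 and 2.01, and Parm1 and A230050P20Rik just below it, also with ratios of 2.00 and of 1.97.

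**Figure D2:**
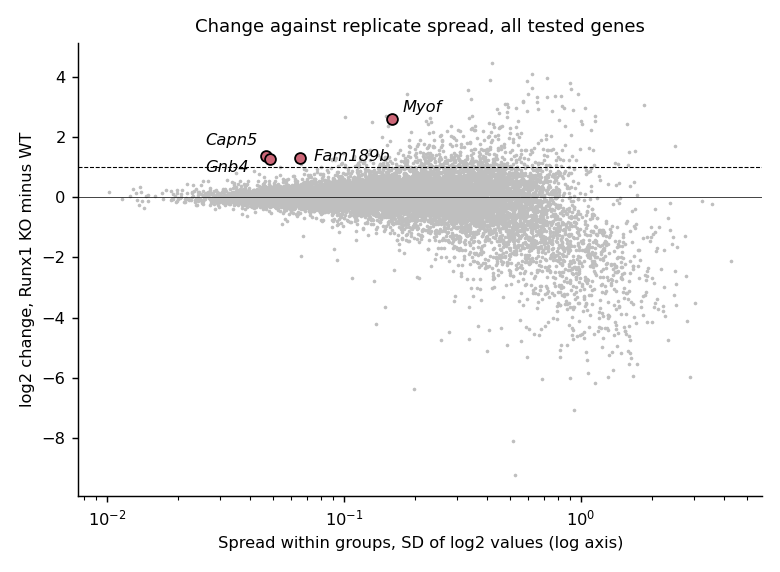
Log2 change from WT to Runx1 KO (vertical axis) against the spread within groups (horizontal log axis) for every tested gene in grey and the 4 chosen genes in red; the dashed line marks a log2 change of 1. Capn5, Gnb4 and Fam189b stand at the left with spreads of 0.047 to 0.065 above the grey cloud, and Myof stands at 0.16.

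Genes with a similar profile were sought by the root-mean-square difference of log2 values, each centred on its own mean over the 6 libraries, among 11200 tested genes with a mean of at least 100 normalised reads. Capn5, Fam189b and Gnb4 were near to each other: they differed by 0.055 (Capn5 and Fam189b), 0.058 (Fam189b and Gnb4) and 0.077 (Capn5 and Gnb4). For Capn5 and for Fam189b, the other 2 of these 3 genes were the nearest of all; for Gnb4, Fam189b came first, ahead of Tnik and Capn5. The choice of genes with small spread, and ratios of 2.43 to 2.62, already makes these differences small, so they are given as a description. The median difference from all genes in the search was 0.65 for Gnb4 and 0.70 for Capn5. The third gene for Capn5 was Gpc3 (0.085), a glypican of the cell surface, with a log2 change of 1.38 (SE 0.11). The third for Fam189b was Prkcq (0.091), the protein kinase C theta of T-cell and platelet signalling, with 1.34 (SE 0.11), and the second for Gnb4 was Tnik (0.072), a kinase of the Wnt pathway, with 1.24 (SE 0.08).

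Myof had no such close partner. Its difference from each of the other 3 genes was between 0.63 and 0.68. The nearest genes were Ifitm7 (0.13), a member of the interferon-induced transmembrane family, Efcc1 (0.18) and Scand1 (0.22), with log2 changes of 2.50 (SE 0.16), 2.51 (SE 0.16) and 2.56 (SE 0.18). Their levels were far lower than that of Myof: Ifitm7 had 39.7 ± 5.02 against 229 ± 10.8 normalised reads (SD, n = 3).

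Neither of the 2 other ferlins that could be tested passed. Dysf, which encodes dysferlin of the muscle repair machinery, had 16.8, 49.4 and 40.3 normalised reads in WT and 22.0, 21.8 and 32.8 in Runx1 KO, overlapping groups with a limma adjusted p of 0.574. Fer1l5 had 241, 232 and 215 against 235, 241 and 244 (limma adjusted p 0.683). Otof and Fer1l6 were at 15.8 normalised reads or less in every library and were not tested, and Fer1l4 was not in the data. In Runx1 KO, Myof was thus at 2941 ± 401 beside the 239.95 ± 4.22 of Fer1l5, the next in counts not scaled by length (SD, n = 3).

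Genes of membrane repair listed beside Myof were called lower more often than higher. Of these 24 genes (ferlins, EH-domain proteins, annexins, annexin partners and caveolar proteins), 22 were in the data and 19 were tested; 1 was higher and 9 were lower by limma at an adjusted p of 0.05, 52.6% of those tested against 21.9% of all genes. Their median log2 change was -0.37, against 0.00 over all tested genes. Among the 8 annexins, calcium-dependent binders of membrane phospholipid, 5 fell and 0 rose. Anxa1, the glucocorticoid-regulated annexin of neutrophils, fell from 14592 ± 3058 to 5290 ± 1160 normalised reads (log2 change -1.46, SE 0.19, limma adjusted p 0.00407). Anxa2, which forms a complex with S100a10 at the membrane, fell from 6481 ± 1769 to 2437 ± 917 (-1.44, SE 0.28, limma adjusted p 0.0134). Anxa6 and Anxa11 fell by 0.76 (SE 0.13) and 0.73 (SE 0.12) on the log2 scale, and Anxa5 by 0.42 (SE 0.12), a call lost with library totals as scaling (limma adjusted p 0.0746).

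Of the EH-domain ATPases, which shape endocytic membranes and some of which bind ferlins, Ehd3 fell from 401 ± 30.4 to 197 ± 47.0 normalised reads (SD, n = 3; limma adjusted p 0.00929) and Ehd1 by 0.37 on the log2 scale (SE 0.10). Ehd2, the partner best known for myoferlin, had 361, 133 and 211 against 187, 142 and 312 normalised reads, with overlapping groups. Ahnak and S100a11 fell by 1.41 (SE 0.37) and 0.66 (SE 0.16). Cavin2, a caveolar coat protein abundant in platelets, was the 1 gene that rose, by 0.71 (SE 0.18). Ehd3, Anxa1, Anxa6 and Anxa11 passed whichever of the 6 libraries was left out. The count of 10 fell to 5 without WT replicate 1, 5 without WT replicate 2, 4 without Runx1 KO replicate 2 and 6 without Runx1 KO replicate 3. Anxa2 was lost without Runx1 KO replicate 2 (limma adjusted p 0.057), while Ehd1, Anxa5, Ahnak, S100a11 and Cavin2 were lost in 4 or 5 of the 6 fits. WT replicate 1 was the highest library for every gene of this list called lower except Ehd3. Among the Runx1 KO libraries, replicate 1 was the highest for every such gene except Ehd1. Most of these calls thus share the same replicate pattern.

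Of 15 other genes of the calpain system, 11 were in the data and 9 were tested. Among these limma called 1 (11.1%, against 21.9% of all tested genes), the small subunit Capns1, which fell from 7624 ± 406 to 6384 ± 420 normalised reads (SD, n = 3; log2 change -0.26, SE 0.07, limma adjusted p 0.0416). That call was lost in 5 of 6 fits with a library left out and with library totals as scaling (limma adjusted p 0.083), where Capn15 was called in its place; without Runx1 KO replicate 1 the calls were 3. The ubiquitous calpains Capn1 and Capn2 had log2 changes of -0.15 (SE 0.10) and 0.02 (SE 0.22). The other atypical calpains, Capn7, Capn10 and Capn15, had 0.02 (SE 0.05), 0.08 (SE 0.10) and 0.30 (SE 0.09). Cast, which encodes the inhibitor calpastatin, had -0.40 (SE 0.12) and Capn3, the muscle calpain, -0.13 (SE 0.20), and neither passed. Capn11 was at 0 in WT replicate 2 and in Runx1 KO replicate 3 and between 29.7 and 76.7 normalised reads in the other libraries. Capn13 was at 10.9 normalised reads or less, and Capn6, Capn8, Capn9 and Capn12 were not in the data.

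Of the other genes of the ENTREP family, 1 was in the data. Fam189a1 had 52.4, 5.05 and 2.88 normalised reads in WT and 1.05, 0 and 0 in Runx1 KO and was too low to test; the floor of 3 reads lies between 2.88 and 3.14 normalised reads. Fam189a2 was not in the data. The list around Fam189b holds 15 other genes: Fam189a1, Fam189a2, the NEDD4-type HECT ubiquitin ligases, their adaptors, Wwox and Cxcr4. Of these 15, 13 were in the data and 11 were tested. Among those tested, 1 rose and 2 fell, a share of 27.3% and near the 21.9% of all genes. Itch, the ligase that a relative of Fam189b is known to activate, had 4082, 4005 and 3863 against 3774, 3756 and 3668 normalised reads, with a log2 change of -0.09 (SE 0.05, limma adjusted p 0.226). Nedd4, the founding ligase of the group, rose from 14205 ± 629 to 20128 ± 1078 (log2 change 0.50, SE 0.07, limma adjusted p 0.00382), and Wwp2 fell by 0.35 (SE 0.07), a call lost without Runx1 KO replicate 2 or 3.

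Cxcr4, the receptor that holds progenitors in the marrow and a known cargo of ITCH, fell. Its normalised read counts were 9649, 5195 and 5608 in WT replicates 1 to 3 and 2868, 2670 and 2534 in Runx1 KO replicates 1 to 3. WT replicate 1 stood above the rest, and the groups did not overlap. The log2 change was -1.29 (SE 0.22). The limma adjusted p was 0.0091, and at most 0.0414 when any 1 library was left out.

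None of the 3 other tested G protein beta subunits was called higher. Gnb1, one of the 2 main beta subunits here, had 8700, 8937 and 8373 against 7578, 7658 and 7403 normalised reads, a log2 change of -0.20 (SE 0.05, limma adjusted p 0.0349). This call was lost whichever of the 6 libraries was left out, at adjusted p values up to 0.126, and with library totals as scaling (0.116). Gnb2, the other main subunit, fell from 7532 ± 120 to 5846 ± 338 (SD, n = 3; log2 change -0.37, SE 0.06, limma adjusted p 0.00775). Gnb5, the divergent beta subunit that pairs with RGS proteins, had overlapping groups at 91.0, 65.6 and 74.8 against 82.6, 80.3 and 57.7 normalised reads (limma adjusted p 0.834), with a log2 change of -0.07 that was 0.0080 with library totals. Gnb3 was not in the data.

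Per kb of merged exon, Gnb4 stayed a minor subunit. The merged exons are 12692 bases for Gnb4, 4268 for Gnb1 and 3402 for Gnb2, so its level and share are low if mostly shorter transcripts are made. In counts not scaled by length, Gnb4 had 578 normalised reads in WT beside 8670 for Gnb1 and 7532 for Gnb2. In Runx1 KO it had 1407 beside 7546 and 5846. In WT the levels were 2214 ± 35.4 normalised reads per kb for Gnb2, 2031 ± 66.4 for Gnb1, 45.6 ± 1.80 for Gnb4 and 24.8 ± 4.13 for Gnb5 (SD, n = 3). In Runx1 KO they were 1718 ± 99.4, 1768 ± 30.5, 111 ± 2.95 and 23.6 ± 4.42; the levels of Gnb1 and Gnb2 overlapped there. The share of Gnb4 in the summed level of the 4 genes was 0.996%, 1.07% and 1.11% in WT and 3.04%, 2.99% and 3.15% in Runx1 KO, while the sum itself was 4316 ± 78.7 and 3621 ± 122.

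**Figure D3:**
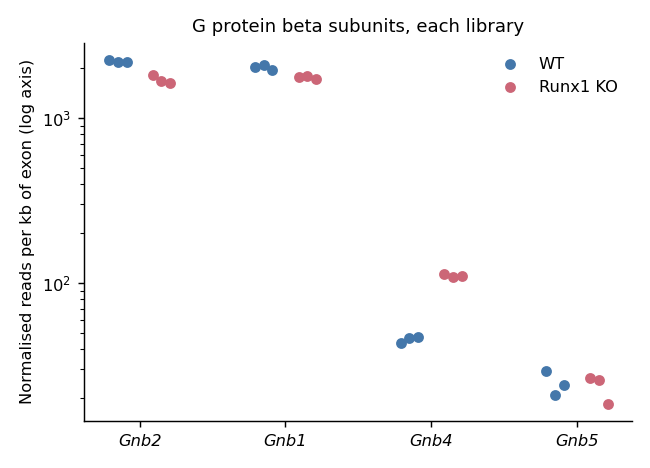
Normalised reads per kb of merged exon (vertical log axis) for 4 G protein beta subunit genes, with 1 point per library, WT in blue and Runx1 KO in red. Gnb4 moves from 45.6 to 111 on average and remains below Gnb1 and Gnb2, which are at 1637 or more in every library.

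The gamma and alpha subunits that pair with beta subunits moved in both directions. Of the 41 other genes of heterotrimeric G protein signalling, 36 were in the data and 32 were tested; 6 rose and 8 fell (43.8%, against 21.9% of all tested genes), with a median log2 change of -0.09. The count of 14 was 7 without Runx1 KO replicate 2 and 8 without Runx1 KO replicate 3. Gng11, a farnesylated gamma subunit abundant in platelets, had 119, 131 and 124 against 278, 323 and 244 normalised reads, a log2 change of 1.16 (SE 0.14, limma adjusted p 0.00334) close to the 1.28 of Gnb4. Gngt2, a gamma subunit first described in cone photoreceptors, fell from 846 ± 222 to 193 ± 77.9 (SD, n = 3; log2 change -2.18, SE 0.31, limma adjusted p 0.00536), and Gng5 by 0.28 (SE 0.06), a call lost with library totals.

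Among the alpha subunits, Gna14 of the Gq class rose from 121 ± 11.8 to 425 ± 72.6 normalised reads (SD, n = 3; log2 change 1.80, SE 0.16, limma adjusted p 0.00147), and Gnaq by 0.42 (SE 0.09). Gnas, the stimulatory alpha subunit, had 213, 204 and 214 against 471, 539 and 554 normalised reads (log2 change 1.30, SE 0.10, limma adjusted p 0.00105). Gnas is an imprinted locus with overlapping and antisense transcripts, and how reads in such overlaps were counted is not given, so its level is uncertain. The inhibitory subunits Gnai2 and Gnai3 fell by 0.47 (SE 0.09) and 0.28 (SE 0.07). Among the other signalling genes of the list, the phospholipases Plcb4 and Plcb3 rose by 0.54 (SE 0.07) and 0.26 (SE 0.07), and Plcb1 fell by 0.89 (SE 0.19). Pik3r5, the regulatory subunit that links PI 3-kinase gamma to beta-gamma, fell by 0.71 (SE 0.12). Gnb2, Gng11, Gngt2, Gna14, Gnas, Plcb4 and Pik3r5 passed whichever of the 6 libraries was left out. Gnai2 was lost without Runx1 KO replicate 2 (limma adjusted p 0.057), and Gng5, Gnai3, Gnaq, Plcb1 and Plcb3 were lost in between 2 and 6 of these fits.

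**Figure D4:**
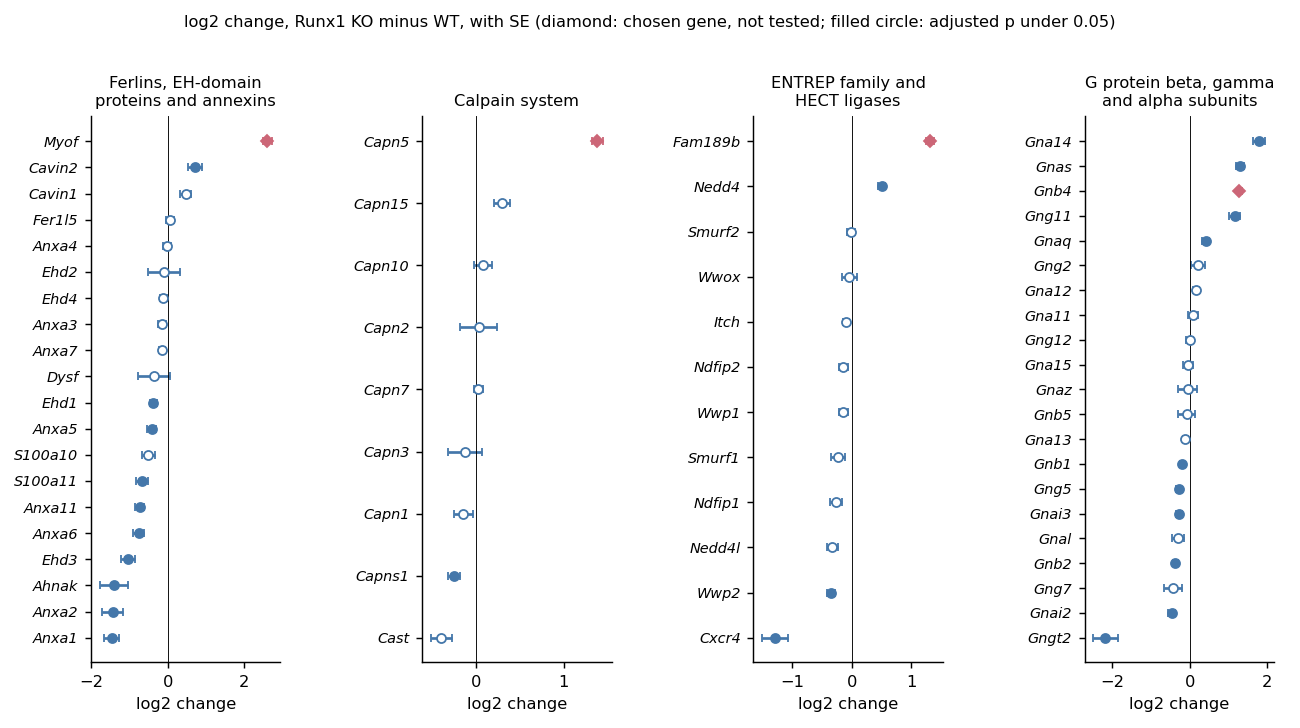
Log2 change from WT to Runx1 KO (horizontal axis) with its SE for the tested genes of the 4 lists. Capn11 (SE 1.99) and the G protein list genes other than beta, gamma and alpha subunits are left out. Red diamonds are the chosen genes, which were not tested, filled circles passed a limma adjusted p of 0.05 and open circles did not. Myof at 2.62, Capn5 at 1.39 and Fam189b at 1.32 lie to the right of every other gene in their panels, while Gna14 and Gnas lie to the right of Gnb4 at 1.28.

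Adjacent genes were compared because reads of overlapping or close genes can be miscounted. In GENCODE M21, 19 genes overlapped 1 of the 4 or were among the nearest on either side; 11 were in the data and 9 were tested. Their log2 changes ran from -0.36 to 0.34. Limma called 1 of the 9 higher and 1 lower, a share near the 21.9% of all tested genes. Cep55, a midbody protein of cell division that starts 11.4 kb from the start of Myof, fell from 1509 ± 54.2 to 1176 ± 102 normalised reads (SD, n = 3; limma adjusted p 0.0216). Scamp3, an endosomal membrane protein that ends 377 bases before Fam189b begins, rose from 2047 ± 127 to 2460 ± 45.4 normalised reads (SD, n = 3; limma adjusted p 0.0279), which is 0.27 on the log2 scale (SE 0.06) beside the 1.32 of Fam189b. Both calls were lost in 4 of 6 fits with a library left out: Cep55 without WT replicate 1, 2 or 3 or Runx1 KO replicate 3, and Scamp3 without WT replicate 1 or 3 or Runx1 KO replicate 2 or 3.

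The other 7 tested neighbours did not pass. Omp, which lies within Capn5 on the same strand, had 14.8, 10.1 and 13.4 against 11.5, 21.8 and 16.9 normalised reads. Myo7a, 2034 bases beyond the end of Capn5, had a log2 change of 0.13 (SE 0.07), and Mfn1, 1092 bases beyond the end of Gnb4 on the opposite strand, one of 0.07 (SE 0.11). Gm16938, which overlaps the start of Capn5 on the opposite strand, and Gm37640, which lies inside Gnb4 on the opposite strand, were not in the data. The libraries were strand-specific, but whether counting used the strand is not given in the sources used here.

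**Figure D5:**
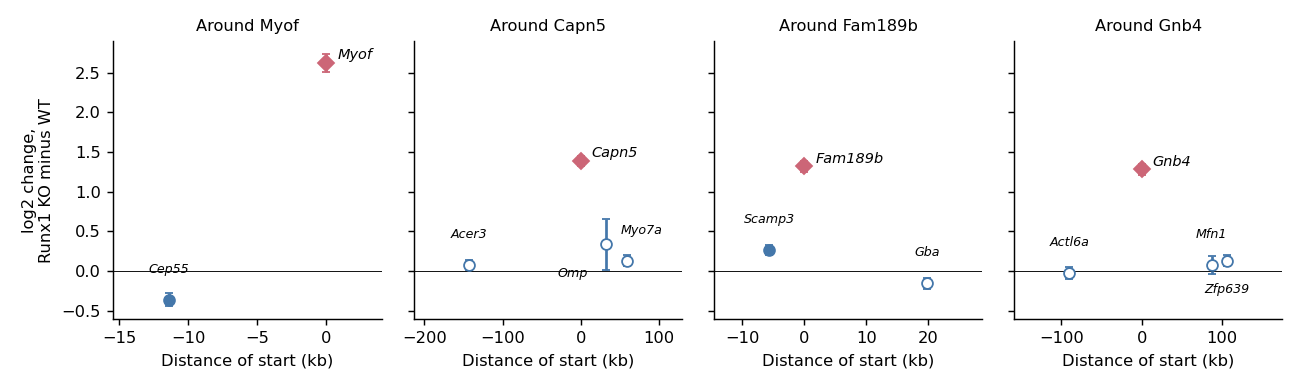
Log2 change from WT to Runx1 KO with its SE (vertical axis) for each chosen gene (red diamond) and its tested neighbours (circles, filled where the limma adjusted p was under 0.05) against the distance in kb between gene starts, negative upstream of the chosen gene. All neighbours lie between -0.36 and 0.34, below the 1.28 to 2.62 of the chosen genes.

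Markers of cell types that could carry these transcripts were read against the 10.6% of all tested genes called higher and the 11.3% called lower. Myof is known from endothelial cells. Of 6 genes listed as endothelial markers, limma called 4 higher (Kdr, Emcn, Tek and Esam, with log2 changes from 1.39 to 1.92) and 0 lower, and none was at 0. Whether the rise of these 4 came from endothelial or from stem cells was not measured. Cdh5, the defining endothelial cadherin, had 65.3, 63.6 and 43.2 against 38.7, 22.8 and 34.8 normalised reads. Its log2 change was -0.83 (SE 0.28), opposite to the 4, and it did not pass (limma adjusted p 0.0765). The summed level of the 6 ran from 3059 to 3930 normalised reads in WT and from 3798 to 5273 in Runx1 KO. Most of it in both groups was Pecam1, with 3185 ± 488 and 3072 ± 613 (SD, n = 3), which did not pass (limma adjusted p 0.825). The 4 called genes had WT means from 54.7 (Kdr) to 158 (Tek). Of 6 stem and multipotent markers, 4 rose (Procr, Hlf, Slamf1 and Meis1, by 1.01 to 2.53 on the log2 scale) and 0 fell, with sums from 1930 to 3194 and from 4369 to 5044. Of the 5 megakaryocyte markers in the data, 3 rose (Itga2b, Gp9 and Vwf) and 0 fell, with sums from 3495 to 4377 and from 4368 to 6644, while Pf4 had 428, 448 and 477 against 391, 238 and 153. Of 6 macrophage markers, 1 (Adgre1) fell and 0 rose, with sums from 11230 to 18046 and from 11304 to 14739. Of the 3 stromal markers tested, 3 fell; with Lepr, the sums of the 4 in the data ran from 1007 to 1217 and from 404 to 584. The part of these cell types in the levels of Myof, Capn5, Fam189b and Gnb4 was not tested.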

How the data were processed

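Gene expression was measured in 6 libraries, 3 with the label WT and 3 with the label Runx1 KO. The submitters' processing notes name HISAT2, HTSeq 0.9.1 and the builds mm10 and GRCm38, without saying what each did. The deposited values are a signal: the authors divided gene read counts by a size factor per library, as worked out from the values, 100% of which are whole multiples (tolerance 0.001) of the smallest in their file. No gene totals under 10 reads, so weaker genes are not listed. Reads are not independent molecules, so the floor of 3 reads covers counting error only.

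Symbols came from a table of Ensembl identifiers (20077 of 20097 matched), and positions and exon lengths from GENCODE M21 (GRCm38). Genes entered the test with at least 10 reads, scaled to the median library, in 3 libraries and a total of at least 15, leaving 15410. limma 3.58.1 (R 4.3.3; lmFit, eBayes with trend) was fitted to log2(value + 1), which understates changes of low genes, with Benjamini-Hochberg adjustment over all tested genes; it was tested on simulated data. An exact test of 3 against 3 libraries cannot go below p = 0.1 and was not run.

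The genes, lists and tests were chosen with earlier results of these data known. Named genes were the chosen genes, Runx1, all their family members in the data, list genes and neighbours past the threshold, the 3 most similar profiles and the genes at the 2-fold limit; others, including 2900026A02Rik and marker genes quoted, were named after their values were seen. The alternatives were other filters, pseudocounts of 0.5 and 5, library totals, the replicate block and leaving out each library.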

Additional observations from a re-analysis of the deposited data

How the results depend on the processing

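All 4 genes stayed higher in Runx1 KO under every alternative run. Their choice on these same libraries, with groups that did not overlap, had already fixed this direction, so it is no test of the rise. Library totals as scaling, which shift all genes by a median of 0.08 on the log2 scale, gave 1.47 for Capn5, 1.40 for Fam189b and 1.36 for Gnb4. Leaving out a library gave 2.51 to 2.70 for Myof, 1.36 to 1.42 for Capn5, 1.28 to 1.36 for Fam189b and 1.25 to 1.30 for Gnb4. Settings that used all libraries called between 3187 and 3843 genes against 3370; library totals gave 2383 higher and 1372 lower genes against 1631 and 1739. Leaving out a library, which also leaves fewer samples, gave 1367 to 3597 called genes (lowest without Runx1 KO replicate 2), 4 to 9 membrane repair genes, 0 to 3 of the calpain system, 2 to 4 of the ENTREP and HECT list, 7 to 12 of the G protein list and 0 to 2 neighbours; the cause was not tested. Of 28 called list genes, 13 passed in all 6 such fits.

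The replicate numbers were not taken to pair the libraries: same-numbered deviations from the group means correlated at 0.29, 0.13 and -0.01, and WT replicate 2 correlated best with Runx1 KO replicate 3 (0.23). The replicate block gave 3843 genes, 3 of the calpain system and 5 of the ENTREP and HECT list, against 3370, 1 and 3. Reversals concerned uncalled genes whose log2 change was near 0 in the main fit. Gnb5 was 0.0080 with library totals. With a library left out, Gnb5 ran from -0.1822 to 0.0903 and Capn2 from -0.1754 to 0.1819. Capn11, poorly measured with an SE of 1.99, ran from -1.9756 to 1.7114. For single genes, 241 of 252 values from settings with all 6 libraries did not change their call or sign. With a library left out, 175 of 252 did not, while 67 lost their call, 3 gained one and 7 changed sign. The planned edgeR and DESeq2 fits were not run, although read counts can be worked out from the deposited values; limma was fitted to the values as deposited.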

Other observations

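Beside the 4 chosen genes, 58 others combined a ratio of at least 2 with a spread no larger than that of Myof; those named here were picked after their values were seen and are given as values. Rgs8, a regulator that ends G protein signals, had a ratio of 6.82 and BC051142 one of 6.71, the only 2 of the 58 above the 6.19 of Myof. Surface proteins among them were Nectin2, an adhesion molecule, with a ratio of 3.72, Scarf1, a scavenger receptor, with 2.71, Itga9, an integrin chain, with 2.65, and Cd59a, an inhibitor of complement lysis, with 2.23. Gnas and Gng11 of the G protein list were also among them, with 2.48 and 2.26, and so was Runx1 itself, with 2.06.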
